A study of Mus musculus with 4 samples.

Results

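The genes of cholesterol, sphingolipid and fatty acid synthesis were compared between threat-exposed and control mice in the prefrontal cortex. The list held 41 genes, ordered in 4 branches (sterol, sphingolipid and galactolipid, fatty acid, transport), and its members were taken by symbol from probe sets that the array annotation assigns to a single gene. This list and the other gene lists below were chosen with earlier results of these data known, so counts over them are descriptions and not tests. Of these, 39 were measured, out of 18193 genes measured in all, using for a gene the probe set whose mean over all arrays was highest. Acat2 and Cers1 were not analysed here, because no probe set carried either symbol alone. Each of the 4 Affymetrix MOE430 2.0 arrays held RNA of prefrontal cortex pooled from 5 mice, with 2 pools from mice that met social threat repeatedly and 2 from control mice, whose condition is labelled low threat. The sources used here give no strain, sex, age or length of exposure, and a pool hides the spread between the mice in it. The values are log2 expression values as deposited, so that a difference of 1 is a change by a factor of 2.

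Cholesterol is made from acetyl-CoA through mevalonate, farnesyl diphosphate, squalene and lanosterol, and the enzymes of this route are switched on together by the transcription factor SREBP-2, the product of Srebf2, when sterols in the endoplasmic reticulum run low. Sphingolipids start from serine and palmitate, pass through ceramide, and in oligodendrocytes end largely as galactosylceramide and its sulfated form, the galactolipids that set myelin apart from other membranes. Fatty acid synthesis supplies the acyl chains of sphingolipids, and myelin ceramides carry very long and often hydroxylated ones. The adult brain makes its own cholesterol, most of which sits in myelin, while apolipoprotein E carries it between cells and neurons remove it by hydroxylation.

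Ugt8a and Fa2h, enzymes of myelin galactolipid synthesis, were 2.18-fold and 1.82-fold lower in the threat pools, and Aspa, an oligodendrocyte enzyme that frees acetate, was 1.61-fold lower. No sterol gene differed by more than 1.19-fold by its brightest probe set, and 73.7% of the sterol genes lay above 0, against 64.0% of all bright genes as defined below, although other probe sets of Hmgcs1 and Idi1 were lower. In limma's test over all 45037 probe sets, no member and no other probe set reached an adjusted p under 0.05 (0.0% called), while 4774 probe sets (10.6%) and 5 members had an unadjusted p under 0.05. The smallest adjusted p among the members was 0.413. Below, the pools are called separate where both threat pools lay above, or both below, both control pools, and a gene is counted as lower or higher where its pools were separate and its unadjusted p in limma's test was under 0.05. By that rule 5 of the 39 members were lower (Ugt8a, Fa2h, Aspa, Cers2 and Degs1) and none was higher. All 39 members were bright, meaning that their mean lay above 5.56, the median of all probe sets. Among all 11931 bright genes, 5.27% were lower and 6.25% higher by the same rule, and over all probe sets 5.73% were lower and 4.87% higher. With each array centred on its median, the members split into 4 lower and 4 higher, the higher ones being Hsd17b7, Dhcr7, Acaca and Elovl6.

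**Figure D1:**
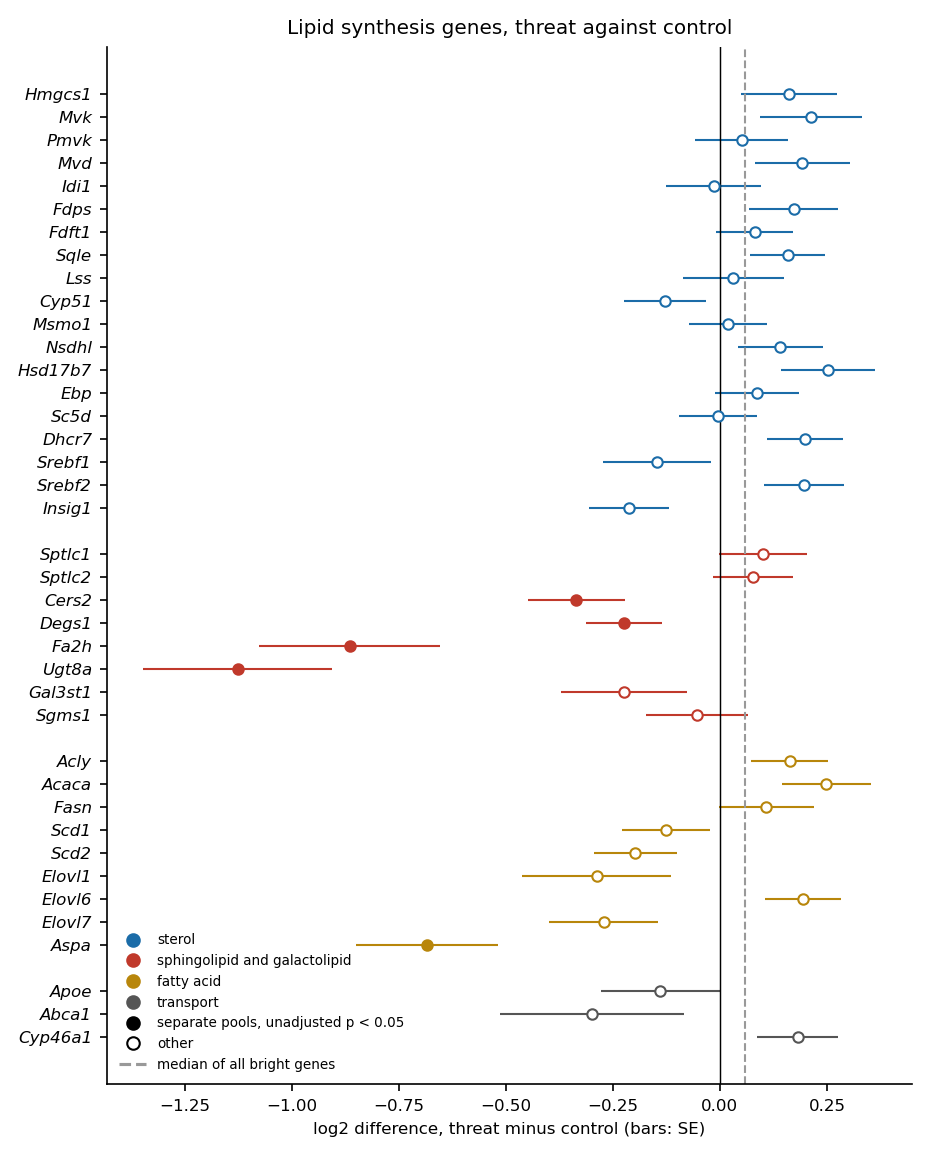
Log2 difference between threat and control pools (horizontal axis, mean of 2 pools minus mean of 2 pools, bars SE from limma) for the 39 measured members, coloured by branch, with filled points for members with separate pools and an unadjusted p under 0.05. Ugt8a, Fa2h and Aspa lie farthest to the left, while most sterol genes lie near the dashed line, the median of 0.06 over all bright genes.

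A size rule gave a similar picture. At least 1.5-fold lower with separate pools were 3 members (Ugt8a, Fa2h and Aspa), against 0.88% of all bright genes, and no member was 1.5-fold higher, against 0.0754% of bright genes. Correlations between arrays, over probe sets, ran from 0.9942 to 0.9961. No exact permutation test was used, since with 2 pools a group its smallest possible 2-sided p is 0.333.

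Promoters of 2 sterol genes and of 2 genes lower in threat are shown, because the sterol genes share a sequence feature that the choice of members did not use. Promoter windows, from 250 bases before to 50 bases after a transcription start, were found in the RefSeq table (GRCm38.p6) for 33 of the 39 members. They were searched on both strands for TCACNCCAC, a form of the sterol regulatory element bound by SREBP, for its shorter core CACNCCAC, which overlaps it, and for CCAAT, the box bound by NF-Y, a factor known to act with SREBP at sterol promoters. The windows below run 5′ to 3′ along the gene, and capitals mark every match on either strand, so that ATTGG is CCAAT read from the opposite strand. Hmgcs1 is at chr13:119690101-119690400 (plus strand), Mvk at chr5:114444019-114444318 (plus strand), Ugt8a at chr3:125938603-125938902 (minus strand) and Aspa at chr11:73324588-73324887 (minus strand).
Hmgcs1: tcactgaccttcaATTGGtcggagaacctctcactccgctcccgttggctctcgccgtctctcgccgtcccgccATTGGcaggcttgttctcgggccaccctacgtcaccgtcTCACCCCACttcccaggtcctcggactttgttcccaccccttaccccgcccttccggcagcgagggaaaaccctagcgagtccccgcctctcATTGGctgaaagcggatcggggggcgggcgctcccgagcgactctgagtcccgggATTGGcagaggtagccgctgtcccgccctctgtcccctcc
Mvk: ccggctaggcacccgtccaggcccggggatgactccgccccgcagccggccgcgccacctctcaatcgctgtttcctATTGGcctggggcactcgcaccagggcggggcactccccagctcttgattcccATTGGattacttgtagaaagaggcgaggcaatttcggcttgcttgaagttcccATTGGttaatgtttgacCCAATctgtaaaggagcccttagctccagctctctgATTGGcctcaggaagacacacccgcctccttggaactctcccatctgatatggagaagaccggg
Ugt8a: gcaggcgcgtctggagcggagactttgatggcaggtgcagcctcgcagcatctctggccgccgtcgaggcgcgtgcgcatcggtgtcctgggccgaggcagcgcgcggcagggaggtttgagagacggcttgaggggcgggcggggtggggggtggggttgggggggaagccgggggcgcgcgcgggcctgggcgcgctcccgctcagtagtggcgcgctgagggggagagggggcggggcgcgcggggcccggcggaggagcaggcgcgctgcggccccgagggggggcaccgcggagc
Aspa: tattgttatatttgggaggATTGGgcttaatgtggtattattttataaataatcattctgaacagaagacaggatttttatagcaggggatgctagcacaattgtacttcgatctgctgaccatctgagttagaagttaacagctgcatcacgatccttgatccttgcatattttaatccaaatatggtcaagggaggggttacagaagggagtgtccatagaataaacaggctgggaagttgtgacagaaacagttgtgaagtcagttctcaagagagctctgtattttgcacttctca

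All 16 sterol genes with a window held CCAAT in at least 1 of their windows (17 of 21 windows), while 37.4% of the 32851 windows of all genes held it. Hmgcs1 held 4 matches and Mvk 5, so the 2 sterol genes shown were among those with the most. Pmvk, Lss, Cyp51, Sc5d, Srebf2 and Insig1 held 1 match each, as many as Aspa. In the sphingolipid and galactolipid branch 5 of 7 genes held it (7 of 13 windows), in the fatty acid branch 4 of 7 (4 of 8 windows) and in the transport group 1 of 3 (1 of 5 windows). Among the genes lower in threat, Aspa and Cers2 held 1 match each, and the letters were not in the windows of Ugt8a and Degs1. The element TCACNCCAC was found in 1 sterol gene, Hmgcs1, against 1.24% of all windows. Its core CACNCCAC was found in 2 sterol genes, Hmgcs1 and Insig1, in Sgms1 and in Elovl7, against 6.24% of all windows. A match of letters describes the window and says nothing of binding in these pools.

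Within the sphingolipid and galactolipid branch, 4 of 8 measured genes were lower in threat by the rule of separate pools and unadjusted p, and none was higher. Ugt8a, the enzyme that attaches galactose to ceramide and so makes the main galactolipid of myelin, measured 8.36 and 8.48 in the threat pools, against 9.88 and 9.22 in the control pools. The threat pools lay well below the control pools, and the control pools differed more from each other than the threat pools did. Its log2 difference was -1.13 ± 0.22 (SE, n = 2 pools each; unadjusted p = 0.00274 and adjusted p = 0.413 in limma's test). The other probe set of Ugt8a measured 6.08 and 6.42 in the threat pools, against 7.52 and 7.06 in the control pools, a log2 difference of -1.04 ± 0.19 (SE).

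Fa2h, which adds the hydroxyl group to the fatty acids of myelin galactolipids, measured 7.91 in both threat pools, against 9.09 and 8.45 in the control pools. The groups did not overlap, and the log2 difference was -0.86 ± 0.21 (SE; unadjusted p = 0.00757 and adjusted p = 0.427 in limma's test). Its size rested on control pool 1, without which it was -0.55. Cers2, the ceramide synthase that uses very long acyl chains and is the main one of oligodendrocytes, measured 8.10 and 8.34 in the threat pools, against 8.57 and 8.54 in the control pools. Here the threat pools were the ones that differed from each other, and the log2 difference of -0.34 ± 0.11 (SE; adjusted p = 0.45 in limma's test) came to -0.22 without threat pool 1.

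Degs1, the desaturase that completes ceramide, measured 10.50 and 10.46 in the threat pools, against 10.73 and 10.68 in the control pools, a log2 difference of -0.22 ± 0.09 (SE; unadjusted p = 0.0489 and adjusted p = 0.47 in limma's test). Its other probe set pointed the other way, with 9.95 in both threat pools, against 9.89 and 9.82 in the control pools. Degs1 is thus counted as lower by 1 of 2 probe sets. Gal3st1, which sulfates galactosylceramide and so acts after Ugt8a, measured 6.88 and 6.83 in the threat pools, against 7.28 and 6.89 in the control pools. Its pools were separate by a narrow margin, the difference being carried by control pool 1, and its log2 difference of -0.22 ± 0.15 (SE) came to -0.03 without that pool.

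The genes at the start of the route and the sphingomyelin branch did not meet the rule by their brightest probe sets. Sptlc1 and Sptlc2 encode subunits of serine palmitoyltransferase, which starts sphingolipid synthesis in every cell type. Sptlc1 measured 9.30 and 9.33 in the threat pools, against 9.30 and 9.12 in the control pools, and Sptlc2 7.80 and 7.73 in the threat pools, against 7.65 and 7.73 in the control pools. Their groups overlapped, with log2 differences of 0.10 ± 0.10 and 0.08 ± 0.09 (SE). The other bright probe set of Sptlc1 did meet it, with 7.99 and 8.22 in the threat pools, against 8.32 and 8.49 in the control pools, a log2 difference of -0.31 ± 0.12 (SE; unadjusted p = 0.0498 in limma's test). Sgms1, which turns ceramide into sphingomyelin, measured 9.26 and 9.44 in the threat pools, against 9.30 and 9.50 in the control pools, and differed by -0.05 ± 0.12 (SE). The median log2 difference of the branch was -0.22, beside 0.06 for all bright genes.

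**Figure D2:**
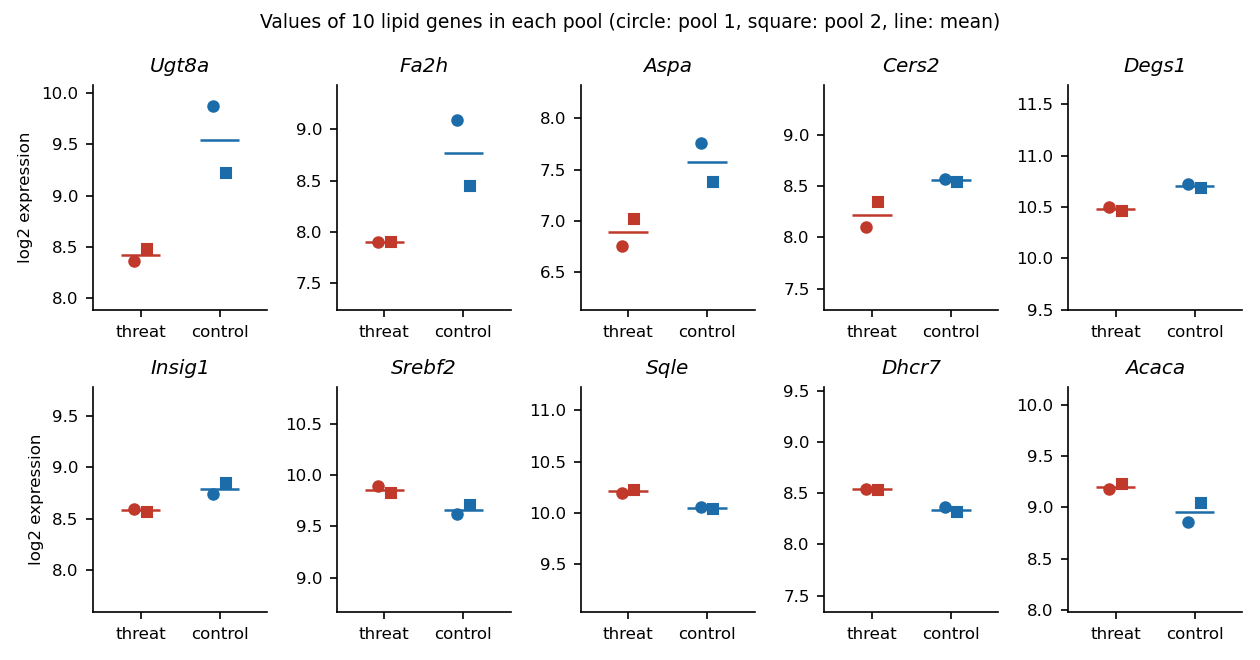
Log2 expression (vertical axis, a span of 2.2 in every panel) of 10 members in each pool, threat to the left of control, with circles for pool 1, squares for pool 2 and lines for group means. The upper row holds the 5 members lower in threat, where Ugt8a lies at 8.36 and 8.48 in threat and 9.88 and 9.22 in control, and the lower row holds Insig1, Srebf2, Sqle, Dhcr7 and Acaca, whose groups do not overlap but lie within 0.25 of each other by their means.

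In the fatty acid branch 1 of 9 genes was lower by the same rule and none was higher. Aspa splits N-acetylaspartate in oligodendrocytes and frees acetate that can be used for myelin lipids, which is why it is counted here. It measured 6.75 and 7.02 in the threat pools, against 7.76 and 7.38 in the control pools. The groups did not overlap, and the log2 difference was -0.68 ± 0.17 (SE; unadjusted p = 0.00719 and adjusted p = 0.427 in limma's test), or -0.55 without threat pool 1, where it no longer met the rule.

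None of the genes of common fatty acid synthesis (Acly, Acaca, Fasn and Elovl6) met the rule by its brightest probe set. Acly, which makes cytosolic acetyl-CoA from citrate, measured 10.88 and 10.95 in the threat pools, against 10.74 and 10.77 in the control pools. Acaca, the carboxylase that commits acetyl-CoA to fatty acid synthesis, measured 9.18 and 9.22 in the threat pools, against 8.86 and 9.04 in the control pools. Both had separate pools, with log2 differences of 0.16 ± 0.09 and 0.25 ± 0.10 (SE), and neither reached an unadjusted p of 0.05. The other bright probe sets of Acly differed by 0.33 and -0.09, both with separate pools. Fasn, the fatty acid synthase, overlapped between the groups, with 10.02 and 10.10 in the threat pools, against 9.84 and 10.06 in the control pools. Elovl6, which lengthens palmitate to stearate, measured 9.50 and 9.51 in the threat pools, against 9.33 and 9.30 in the control pools, a log2 difference of 0.19 ± 0.09 (SE; unadjusted p = 0.0739). Its pools were close within each group and separate between them.

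The desaturases and the other elongases did not meet the rule by their brightest probe sets either. Scd2, the stearoyl-CoA desaturase that is abundant in brain, measured 12.43 and 12.56 in the threat pools, against 12.67 and 12.72 in the control pools, and Scd1, the related desaturase, 10.31 and 10.42 in the threat pools, against 10.56 and 10.43 in the control pools. Their pools were separate, those of Scd1 by less than the second decimal shows, and the log2 differences were -0.20 ± 0.10 for Scd2 and -0.13 ± 0.10 for Scd1 (SE). Elovl7, an elongase of long saturated chains, measured 6.40 and 6.39 in the threat pools, against 6.82 and 6.51 in the control pools, a log2 difference of -0.27 ± 0.13 (SE; unadjusted p = 0.0818). Elovl1, which makes the very long saturated chains used by Cers2, measured 7.16 and 7.60 in the threat pools, against 7.79 and 7.54 in the control pools, so that its groups overlapped by this probe set (-0.29 ± 0.17, SE). The median log2 difference of the branch was -0.13, and leaving out control pool 1 gave -0.06, leaving out threat pool 1 gave -0.07.

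The sterol branch held 19 measured genes, and none was lower or higher by the rule of separate pools and unadjusted p. Of the 19, 14 lay above 0 (73.7%), against 64.0% of all bright genes, and the median log2 difference was 0.09, against 0.06 for bright genes. Pools were separate with threat higher in 11 of the 19 (57.9%) and with threat lower in 2, while among bright genes 33.1% had separate pools with threat higher and 15.5% had them lower. The differences ran from -0.21 to 0.25, the highest being that of Hsd17b7, which was 1.19-fold higher.

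The early steps, up to squalene, were represented by Hmgcs1, which makes HMG-CoA, and by the enzymes after it. Hmgcs1 measured 12.49 and 12.56 in the threat pools, against 12.25 and 12.47 in the control pools. Mvk, the mevalonate kinase, measured 7.98 and 7.81 in the threat pools, against 7.79 and 7.58 in the control pools, a log2 difference of 0.21 ± 0.12 (SE). Both had separate pools, although the gap between the nearest threat and control pools was under 0.1. Pmvk, the next kinase, overlapped, with 9.09 and 9.01 in the threat pools, against 9.10 and 8.90 in the control pools. Mvd, the decarboxylase that follows, measured 7.73 and 7.80 in the threat pools, against 7.46 and 7.68 in the control pools. Idi1, the isomerase of isopentenyl diphosphate, overlapped, with 9.65 and 9.87 in the threat pools, against 9.73 and 9.81 in the control pools. Farnesyl diphosphate is made by Fdps and joined to squalene by Fdft1. Fdps measured 10.68 and 10.62 in the threat pools, against 10.57 and 10.39 in the control pools, and Fdft1 11.15 and 11.12 in the threat pools, against 11.08 and 11.03 in the control pools. The log2 differences of Hmgcs1, Mvd and Fdps lay between 0.16 and 0.19, and that of Fdft1 was 0.08.

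Squalene is oxidised by Sqle, a controlled step of the route, and closed to lanosterol by Lss. Sqle measured 10.20 and 10.22 in the threat pools, against 10.06 and 10.04 in the control pools. Its pools agreed within 0.03 in each group, and the log2 difference of 0.16 ± 0.09 (SE; unadjusted p = 0.126) was similar whichever pool was left out, from 0.15 to 0.17. Lss overlapped between the groups and differed by 0.03 ± 0.12 (SE). Cyp51, which takes a methyl group off lanosterol, was the enzyme of the branch with the lowest difference by its brightest probe set. It measured 9.19 and 9.32 in the threat pools, against 9.38 in both control pools, a log2 difference of -0.13 ± 0.10 (SE). The other bright probe set of Cyp51 lay on the other side of 0, at 0.06 ± 0.14 (SE), with overlapping groups.

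The later steps were Msmo1, Nsdhl and Hsd17b7, which remove the remaining methyl groups. Ebp, Sc5d and Dhcr7 then move, add or remove double bonds. Hsd17b7 had the largest difference of the branch with all pools included. It measured 8.89 and 8.84 in the threat pools, against 8.50 and 8.72 in the control pools, a log2 difference of 0.25 ± 0.11 (SE; unadjusted p = 0.0638 and adjusted p = 0.485 in limma's test). Without control pool 1 it was 0.15, below Mvk at 0.32, Fdps at 0.26 and Dhcr7 at 0.22. Without control pool 2 the log2 difference of Hsd17b7 was 0.36. Nsdhl measured 9.21 and 9.06 in the threat pools, against 9.03 and 8.96 in the control pools, and Ebp 8.82 and 8.84 in the threat pools, against 8.82 and 8.67 in the control pools. Their separation was narrow, with log2 differences of 0.14 and 0.09. Dhcr7, which makes cholesterol in the last step of its pathway, measured 8.54 and 8.53 in the threat pools, against 8.36 and 8.32 in the control pools, a log2 difference of 0.20 ± 0.09 (SE; unadjusted p = 0.0708). Msmo1 and Sc5d overlapped between the groups. Msmo1 measured 10.94 and 11.01 in the threat pools, against 10.96 and 10.95 in the control pools, and Sc5d 9.96 and 9.92 in the threat pools, against 9.97 and 9.91 in the control pools.

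The regulators did not all lie on the same side. Srebf2, which encodes the activator of the sterol genes, measured 9.89 and 9.83 in the threat pools, against 9.62 and 9.71 in the control pools, a log2 difference of 0.20 ± 0.09 (SE; unadjusted p = 0.0855). Insig1, which holds the SREBP complex in the endoplasmic reticulum and is itself an SREBP target, measured 8.60 and 8.56 in the threat pools, against 8.74 and 8.84 in the control pools, a log2 difference of -0.21 ± 0.09 (SE; unadjusted p = 0.0674). Both had separate pools, in opposite directions. Srebf1, whose product acts mainly on fatty acid genes, overlapped, with 8.35 and 8.63 in the threat pools, against 8.58 and 8.70 in the control pools.

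The transport group held 3 genes, none of them lower or higher by the rule. Apoe, the main lipoprotein of brain, measured 12.86 and 13.19 in the threat pools, against 13.11 and 13.22 in the control pools. Abca1, which loads cholesterol onto apolipoprotein E, measured 8.88 and 9.40 in the threat pools, against 9.24 and 9.64 in the control pools. In both genes the groups overlapped and pool 1 of each group lay below pool 2. The log2 differences were -0.14 ± 0.14 for Apoe and -0.30 ± 0.21 for Abca1 (SE), and without threat pool 1 they were 0.03 and -0.04. The other bright probe set of Abca1 lay on the other side of 0, at 0.26 ± 0.18 (SE), also with overlapping groups. Cyp46a1, the neuronal hydroxylase that lets cholesterol leave the brain, measured 11.13 and 11.20 in the threat pools, against 10.94 and 11.04 in the control pools, a log2 difference of 0.18 ± 0.09 (SE; unadjusted p = 0.108) with separate pools.

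Different probe sets of the same member did not always point the same way. Of 22 members with more than 1 bright probe set, 14 had all of them on the same side of 0 and 8 did not. Hmgcs1 had 4 bright probe sets with separate pools, and they split evenly between the directions. A probe set of it measured 11.19 in both threat pools, against 11.62 and 11.69 in the control pools, and another 11.74 and 11.73 in the threat pools, against 12.08 and 12.24 in the control pools. Their log2 differences were -0.46 ± 0.09 and -0.42 ± 0.10 (SE), both with an unadjusted p under 0.05, beside 0.16 and 0.08 by the remaining ones. The value given for Hmgcs1 above is therefore that of its brightest probe set and not of all its transcripts.

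Idi1 measured 7.55 and 7.87 in the threat pools, against 8.23 and 8.42 in the control pools, by its dimmer probe set, a log2 difference of -0.61 ± 0.14 (SE) beside -0.01 by the brighter. Among the 31 bright probe sets of members other than the brightest, 9 were lower and 3 higher by the rule of separate pools and unadjusted p. Over all probe sets, 5.73% were lower and 4.87% higher. The higher ones belonged to Mvd (0.24), Lss (0.33) and Acly (0.33). The lower ones included those of Scd1 (-0.46), Elovl7 (-0.44) and a pair for Elovl1 (-0.39 and -0.30), genes whose brightest probe set also lay below 0. All bright probe sets of Ugt8a, Idi1, Scd1, Scd2, Elovl1 and Elovl7 lay below 0. All those of Mvk, Mvd, Fdft1, Lss, Hsd17b7, Srebf2, Sptlc2 and Elovl6 lay above 0.

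**Figure D3:**
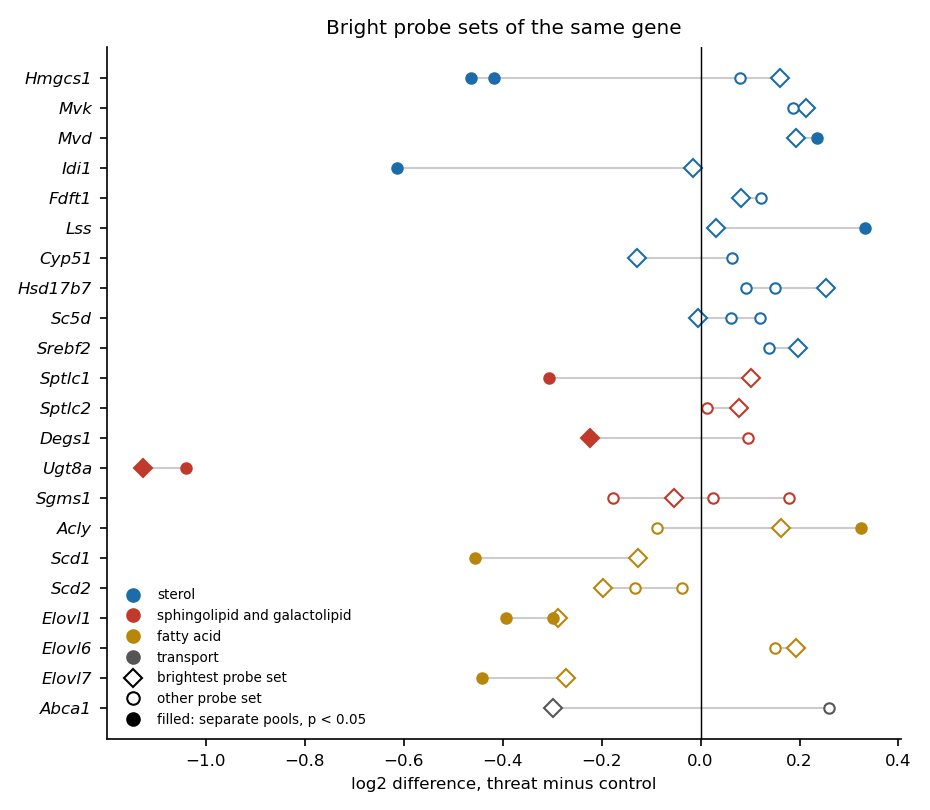
Log2 difference between threat and control pools (horizontal axis) for every bright probe set of the 22 members with more than 1, with diamonds for the brightest and filled symbols for separate pools with an unadjusted p under 0.05. Those of Ugt8a lie together at -1.13 and -1.04, while those of Hmgcs1 run from -0.46 to 0.16 and those of Idi1 from -0.61 to -0.01.

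The members lower in threat lay on the same side as markers of myelinating oligodendrocytes, the cells in which Ugt8a, Fa2h and Aspa are best known. Of 11 such markers, 9 were measured, and all 9 were lower by the rule and by at least 1.5-fold, with a median log2 difference of -0.97 (range -1.31 to -0.69). Their summed level on the linear scale was 11267 and 13719 in the threat pools, against 24955 and 19758 in the control pools, and none lay at the level of the Bacillus control probe sets, which reached 4.25 on the log2 scale. The order of the pools was the same as for Ugt8a, with control pool 1 highest and threat pool 1 lowest. In bulk tissue, fewer oligodendrocytes and less of these transcripts per oligodendrocyte cannot be told apart. The part of these markers in the differences of the lipid genes was not tested.

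The markers of the other cell types differed among each other. Their counts by the rule stand beside 5.76% lower and 4.9% higher among all 18193 genes. Of 7 markers of oligodendrocyte precursors or of their lineage none was lower by the rule (median -0.20). Pdgfra and Cspg4 had log2 differences of 0.01 and 0.15, and the other 5, among them Olig1, Olig2 and Sox10, lay below 0. Of 9 astrocyte markers 3 were lower (Gfap, Gja1 and Fgfr3, median -0.11) and of 8 microglia markers none was (median -0.11). Of 9 neuron markers 2 were lower (Gad1 and Tbr1; median -0.03), while Snap25, Slc17a7 and Gad1, which mark neurons in general, excitatory neurons and inhibitory neurons, were all bright in this tissue. Of 8 endothelial and mural markers 6 were lower (median -0.67, range -1.83 to -0.17), and the pools of all 8 were separate with threat lower. Acta2 and Tagln, markers of smooth muscle, had the lowest log2 differences, at -1.83 and -1.44, beyond the range of the myelin markers. The vessel markers had a summed level of 2668 and 2943 in the threat pools, against 3790 and 5850 in the control pools. Of 7 choroid plexus and ependyma markers 3 were lower (Clic6, Foxj1 and Tmem212; median -0.56, or -0.32 without control pool 1). None of these 3 was bright, and Foxj1 and Tmem212 lay under 4.25, the highest Bacillus control value, in both threat pools. Ttr, which was bright, measured 6.15 and 6.18 in the threat pools, against 9.05 and 6.48 in the control pools. Its pools were separate, with a log2 difference of -1.60 ± 0.78 (SE, unadjusted p = 0.0891 in limma's test), the lowest of the list. The list had a summed level of 240 and 251 in the threat pools, against 813 and 297 in the control pools. By summed level, the vessel markers were highest in control pool 2, unlike Ugt8a. The choroid plexus and ependyma markers were highest in control pool 1 and had the same order of the pools as Ugt8a and the myelin markers. Their part in the results was not tested either.

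**Figure D4:**
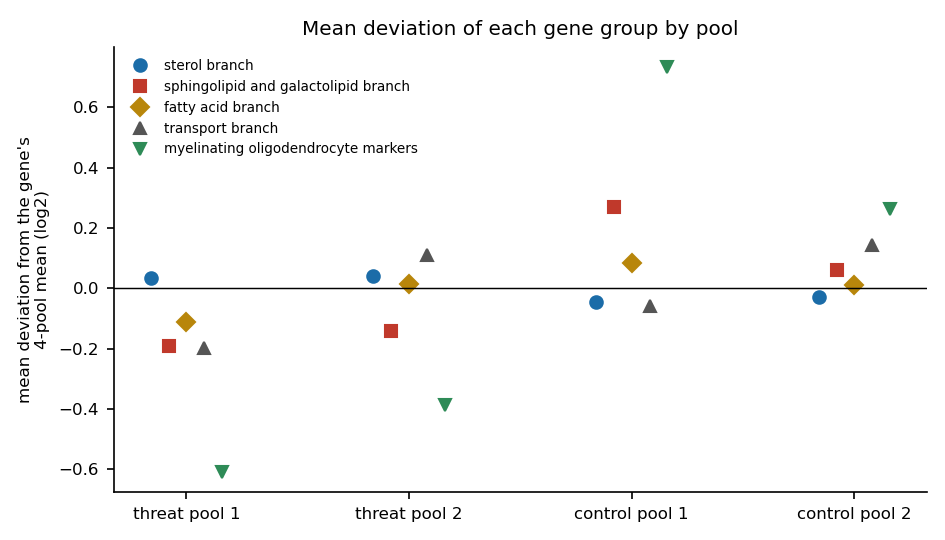
Mean deviation of each gene group from the genes' own 4-pool means (vertical axis, log2), for the 4 pools along the horizontal axis, with 1 symbol for each branch and for the myelinating oligodendrocyte markers. The sphingolipid and galactolipid branch lies at -0.19 and -0.14 in the threat pools and at 0.27 and 0.06 in the control pools, on the same sides of 0 as the markers, while the sterol branch lies between -0.05 and 0.04 in every pool.

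Other genes of the same routes were counted from lists that excluded the members. Among all 18193 genes, 5.76% were lower and 4.9% higher by the rule. Of 9 further sterol genes measured, none was lower or higher by the rule, with a median log2 difference of -0.01. Of 29 further sphingolipid genes 2 (6.9%) were lower and 1 (3.45%) was higher (median 0.00). The higher one was B4galnt1, a synthase of complex gangliosides, which measured 9.69 in both threat pools, against 9.44 and 9.47 in the control pools, a log2 difference of 0.23 ± 0.09 (SE). The lower ones, Sptlc3 and Degs2, had means under the median of all probe sets.

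Of 26 further fatty acid genes 2 (7.69%) were lower and none higher (median -0.08), near the share of all genes. Acsl4, a ligase that activates arachidonate, measured 9.74 and 9.67 in the threat pools, against 10.25 and 10.28 in the control pools, a log2 difference of -0.56 ± 0.09 (SE; unadjusted p = 0.00111 and adjusted p = 0.40 in limma's test). Fabp7, the fatty acid binding protein of astrocytes and glial precursors, measured 11.05 and 11.40 in the threat pools, against 11.64 and 11.86 in the control pools, a log2 difference of -0.53 ± 0.15 (SE). Both lay clearly apart between the groups, at 1.47-fold and 1.44-fold lower. Of 22 further transport genes 2 (9.09%) were lower and 2 (9.09%) higher (median 0.03). The lower ones were Pltp and Ch25h, of which Ch25h was not bright. Pltp, the phospholipid transfer protein, differed by -0.56 ± 0.19 (SE), while Abcg4, a sterol exporter, differed by 0.31 ± 0.10 and Nceh1, a cholesteryl ester hydrolase, by 0.25 ± 0.09 (SE).

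The counts of members rested on few pools. Leaving out 1 pool at a time changed which members met the rule. Without control pool 2, Gal3st1 and Elovl7 came in as lower, at log2 differences of -0.42 and -0.43. Hsd17b7 and Acaca came in as higher without that pool, at 0.36 and 0.34. Elovl1 came in as lower without threat pool 2, at -0.505. Ugt8a and Fa2h met the rule each time, while Degs1 lost it each time and Cers2 without either control pool and without threat pool 1. The size rule was met by 1 member, Ugt8a, without control pool 1 and by 2, Ugt8a and Fa2h, without threat pool 1. The log2 difference of Ugt8a ran from -1.46 without control pool 2 to -0.80 without control pool 1.

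**Figure D5:**
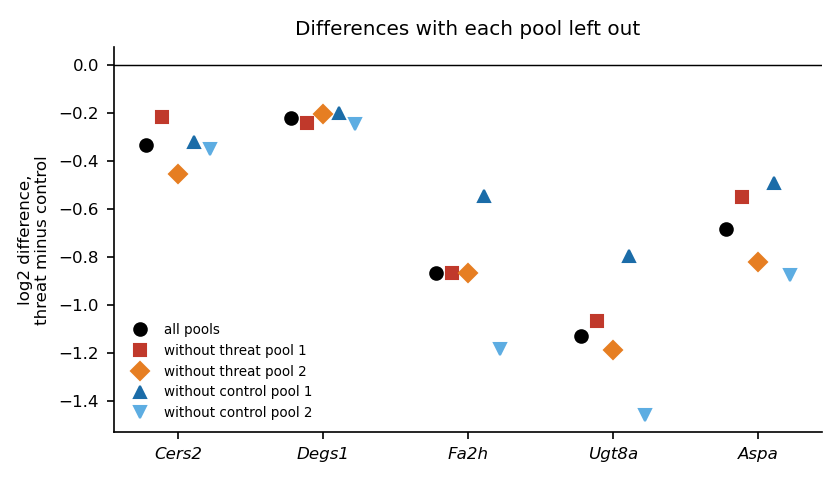
Log2 difference between threat and control pools (vertical axis) for the 5 members lower in threat, with all pools and with each pool left out in turn. Every point lies below 0, and the points without control pool 1 lie nearest to 0 for Fa2h, at -0.55, Ugt8a, at -0.80, and Aspa, at -0.49.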

How the data were processed

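RNA of 4 pools was measured on 1 Affymetrix array each. The values the authors deposited are on the log2 scale, with 1 value for each probe set on each array. RMA is named in the submitters' processing notes, and the sources used here do not give its version, settings or chip definition. Values ran from 2.51 to 14.37, with array medians from 5.53 to 5.58. RMA as usually run equalises the arrays' distributions, which hides a change shared by most transcripts. No detection calls were used.

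Of 45101 probe sets, 64 control probe sets were left out. Threat was compared with control in limma 3.58.1 (R 4.3.3; lmFit and eBayes, 2-sided, Benjamini-Hochberg adjustment over 45037 probe sets, 2 residual degrees of freedom, 2 pools a group). The fit was tested on simulated data. Nothing says whether the pools came from separate cages or days, so p-values measure the spread between pools, and the number of arrays limits the precision. Symbols came from the platform annotation.

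Members, lists and branches were chosen with earlier results of these data known. All members are named. Pathway genes are named, up to 3 a direction and branch, where bright, with separate pools and an unadjusted p under 0.05. Alternatives were each pool left out, pool number as a block, cyclic loess, median centring, an intensity trend, bright probe sets alone, probe set choice and thresholds. Protein sequences were not used here.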

Additional observations from a re-analysis of the deposited data

How the results depend on the processing

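Limma's test gave 0 probe sets with an adjusted p under 0.05 in each refit of the probe sets (4774 had an unadjusted p under 0.05 with all pools). Leaving out 1 pool moved the number of lower members between 2 and 5, that of higher members between 0 and 2, that of members at least 1.5-fold lower between 1 and 3, and the sterol median between 0.0817 and 0.11. A pool left alone in its group is assumed to vary like the other group's pools. The deviations of threat pool 1 and control pool 1 from their group means correlated at 0.33 over probe sets, and the labels do not say that a number pairs pools. With pool number as a replicate block, 5 members were lower and 1 (Acaca) higher. The number of higher members was 4 with arrays centred on their medians, 2 with an intensity trend, and 1 both with probe sets averaged per gene and without probe sets ending in _x_at, _s_at or _a_at. Lower members numbered 8 with probe sets averaged per gene and 3 at an unadjusted p under 0.01, and 1 member was 2-fold lower. The sterol median was 0.058 with cyclic loess, 0.0593 with probe sets averaged per gene and 0.12 with arrays centred on their medians. Without the named probe set classes, which left 32 members (Fa2h and Cers2 not among them), the sphingolipid and galactolipid median was -0.0536 and the fatty acid median -0.0089. The cause of these shifts was not tested. The median difference of bright probe sets, 0.06 as deposited, was 0.01 with cyclic loess and 0.09 with arrays centred on their medians. The sterol median, 0.09 as deposited, moved in the same directions and lay above that of bright probe sets each time. The small positive sterol differences thus changed in size with the scaling, and the part of scaling in them was not tested. Of the 5 lower members none changed direction under any alternative run.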

Other observations

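The genes below were chosen after their values were seen. Genes that break down myelin galactolipids lay near their control values in the threat pools. Galc, the lysosomal enzyme that removes galactose from galactosylceramide, measured 7.72 and 7.78 in the threat pools, against 7.74 and 7.65 in the control pools, a log2 difference of 0.05 ± 0.09 (SE). Arsa, which removes the sulfate that Gal3st1 adds, differed by 0.07 ± 0.09 (SE), and Psap, the precursor of the activator proteins of both enzymes, by 0.09 ± 0.09 (SE). The difference between these and Ugt8a (-1.13 ± 0.22, SE) was not tested. Gltp, a carrier of glycolipids, measured 8.63 and 8.78 in the threat pools, against 9.06 and 8.85 in the control pools, a log2 difference of -0.25 ± 0.12 (SE; unadjusted p = 0.0738 in limma's test).

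Apod, an apolipoprotein of glia and vessels, had the lowest difference among the further transport genes, -0.62 ± 0.32 (SE). It measured 10.23 and 11.15 in the threat pools, against 11.07 and 11.55 in the control pools, so that the groups overlapped.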
